A study of Mus musculus with 26 samples.

Results

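Anti-Müllerian hormone signalling was followed through 9 genes in the mesenchyme of the fetal mouse reproductive tract: the hormone Amh, its type II receptor Amhr2, the type I receptors Acvr1, Bmpr1a and Bmpr1b, the signal-carrying Smad1 and Smad5, their partner Smad4, and the transcription factor Sp7. Members were taken by gene name from the tables of reads per gene. Each table lists 41442 gene rows, and all 9 members were found and passed the filter on low counts in both. Cells carrying a red Rosa-Tomato reporter were sorted from the mesonephros, which holds the Wolffian and the Müllerian duct, and from the uterus around birth, and their RNA was sequenced.

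Fetal cells came from Gli1-CreER; Rosa-Tomato embryos and made up 4 groups of 3 libraries: XX and XY mesonephros at E14.5, and XX and XY mesonephros at E16.5 (E, embryonic day). Uterine cells were labelled E19.5 and neonatal, and made up 3 Amhr2+ libraries (Amhr2-Cre; Rosa-Tomato) and 3 Gli1+ libraries (Gli1-CreER; Rosa-Tomato). The dams in both crosses are described as having received 1 mg of tamoxifen on E12.5 and again on E13.5. Every group carries a Cre and the reporter, and no group without Cre was among the RNA samples. Gli1 is a target of hedgehog signalling, so the fetal population is the hedgehog-responding share of the mesenchyme at the time of tamoxifen and its descendants, and it leaves out mesenchyme that lacked Gli1. How the Amhr2-Cre allele was built is not given in the sources used here, and its effect on reads assigned to Amhr2 was not tested. Nothing in the labels says that the replicates came from separate animals, so p-values measure the spread between these libraries only.

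In the male fetus, Sertoli cells of the testis secrete anti-Müllerian hormone. The hormone binds Amhr2 on mesenchyme around the Müllerian duct, Amhr2 recruits a type I receptor of the bone morphogenetic protein family, and phosphorylated Smad proteins enter the nucleus with Smad4. The duct then regresses; without the signal it forms oviduct, uterus and upper vagina. Sp7, also called osterix and best known from bone, is reported to act downstream of Amhr2 in the male duct mesenchyme.

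Fetal libraries held 23382983 to 64602477 counts each, and uterine ones 28709191 to 37541045. Xist was at 3162 to 4172 CPM (read counts scaled to library size) in XX and at most 16.2 CPM in XY fetal libraries, and Ddx3y was at 104 to 137 CPM in XY and at most 2.17 CPM in XX libraries, so the sex labels matched in all 12 libraries. The highest values of the other sex's gene, 16.2 CPM of Xist and 2.17 CPM of Ddx3y, were in XY and XX replicate 3 at E14.5. The fetal tests were also run without these 2 libraries together. Where a member's call was lost in that fit, this is stated, but values from it are not given for every gene named. All 8 mesenchyme markers (Pdgfra, Vim, Col1a1, Col3a1, Tcf21, Hoxa10, Hoxa11 and Gli1) were detected in every group, with sums of 21406 to 44028 CPM that differed between groups. Of 8 Sertoli markers, Dhh, Dmrt1, Cst9 and Ptgds had means under 1 CPM in each of the 6 groups, and so did 4 of 6 Leydig markers (Cyp11a1, Cyp17a1, Hsd3b1 and Insl3). The other Sertoli markers, Cldn11, Inhbb, Aard and Sox9, brought the sums of that list to between 33.3 and 127 CPM (fetal libraries) and between 135 and 259 CPM (uterine libraries). Of these Cldn11 (log2 -0.86 and -1.31 at E14.5 and E16.5) and Inhbb (-1.70 and -0.69) were lower in XX cells at both ages by the edgeR test. In the other direction, 1 of the 5 Sertoli markers tested was higher in XX cells at E16.5 and 0 at E14.5. The median log2 difference of the 5 was -0.86 at E14.5 and -0.04 at E16.5. The Leydig marker Star had means of 7.67 to 14.7 CPM in the fetal groups and did not pass by sex. Of the 3 Leydig markers tested, 1 was higher in XX cells at E16.5 and 0 were lower, and 0 passed at E14.5. All Leydig markers but Star had means under 1 CPM in the fetal groups. Erythroid transcripts stood apart in 1 library, XX E14.5 replicate 3, where 6 markers summed to 949 CPM. In bulk RNA, fewer cells that express a gene and less of its RNA per cell cannot be told apart.

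The sequences around Amhr2 and Sp7 are shown first, because these members differed most by sex at E16.5 and because they lie on the same stretch of chromosome 15 and had no accessible region at their start. Amhr2 spans chr15:102445367-102454633 on the plus strand of mm10 and Sp7 chr15:102356606-102366968 on the minus strand. Between them lies Sp1, which codes for another member of the Sp family and ends 8962 bases before Amhr2 begins. The deposited peak list of accessible chromatin (ATAC-seq, which marks DNA open to a transposase) unites all fetal Gli1+ samples in 71040 positions with no height or sample, so it tells where a peak was called and not in which sex or at which age. A peak lay within 1 kb of the start of 7 of the 9 members, a share to be read against 14108 of 17846 tested genes, 79.1% (Wilson 95% interval 78.5 to 79.6, which covers counting error only). Those without one were Amhr2, whose nearest peak lies 2636 bases upstream, and Sp7, whose nearest peak lies 3872 bases upstream. Neither gene had a peak inside its body.

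The 250 bases before the start of Amhr2 (chr15:102445117-102445366, plus strand) and before the start of Smad5 (chr13:56702760-56703009, plus strand) are from RefSeq on GRCm38.p6, the assembly also called mm10. RefSeq promoter sequences were matched for 6 of the 9 members. The nearest peak of Amhr2 (chr15:102442621-102442731, plus strand, 111 bases) and of Sp7 (chr15:102370840-102370974, plus strand, 135 bases) were read from the same assembly. Capitals mark any match to the motifs searched.
Amhr2 promoter: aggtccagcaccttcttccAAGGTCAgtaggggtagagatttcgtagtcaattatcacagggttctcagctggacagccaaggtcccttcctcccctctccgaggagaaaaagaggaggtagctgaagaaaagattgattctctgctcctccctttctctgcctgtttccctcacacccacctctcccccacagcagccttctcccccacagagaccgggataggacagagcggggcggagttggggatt
Smad5 promoter: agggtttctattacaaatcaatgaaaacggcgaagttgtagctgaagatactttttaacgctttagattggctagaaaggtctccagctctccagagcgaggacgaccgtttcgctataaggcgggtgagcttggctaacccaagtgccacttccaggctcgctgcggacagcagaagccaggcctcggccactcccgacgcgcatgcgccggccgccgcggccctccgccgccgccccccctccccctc
Amhr2 nearest peak: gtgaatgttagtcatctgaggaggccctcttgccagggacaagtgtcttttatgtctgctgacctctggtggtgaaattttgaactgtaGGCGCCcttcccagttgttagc
Sp7 nearest peak: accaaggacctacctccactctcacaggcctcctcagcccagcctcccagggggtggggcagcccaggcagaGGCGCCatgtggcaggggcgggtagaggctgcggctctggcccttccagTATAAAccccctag

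The motifs were searched on both strands as exact letters: AAGGTCA (the site of Nr5a1 and related nuclear receptors that bind as monomers), GACCACCCA (Gli factors), GGCGCC (bone morphogenetic protein Smads), GTCTAGAC (a Smad palindrome), GCGGGGGCG (Egr and Wt1 factors), AGATAA (factors of the Gata family) and TATAAA. None of these motifs contains another. In the Amhr2 promoter the only match was AAGGTCA, which begins 231 bases before the start (position -231) and is found in 4.08% of the 32851 RefSeq mouse promoters of the same length. The Smad5 promoter shown held no match. RefSeq also lists later Smad5 starts, whose promoters are not shown. The promoter of the start at 56703052 held GGCGCC at position -19. That of the start at 56703668 held AGATAA at -244, a motif in 9.99% of promoters. GGCGCC was found in the peak upstream of Amhr2 and in the one upstream of Sp7, and 9.59% of the promoters hold it. The Sp7 peak also held TATAAA, which is in 12.4% of promoters. These shares are for promoters of 250 bases and are no base rate for the peaks, which span 111 and 135 bases. No share over peaks was computed. The Amhr2 promoter has 5 CpG pairs, near the median of 6 over all promoters, whereas the Smad5 promoter has 22 and lies under a called peak. A match describes the letters only.

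**Figure D1:**
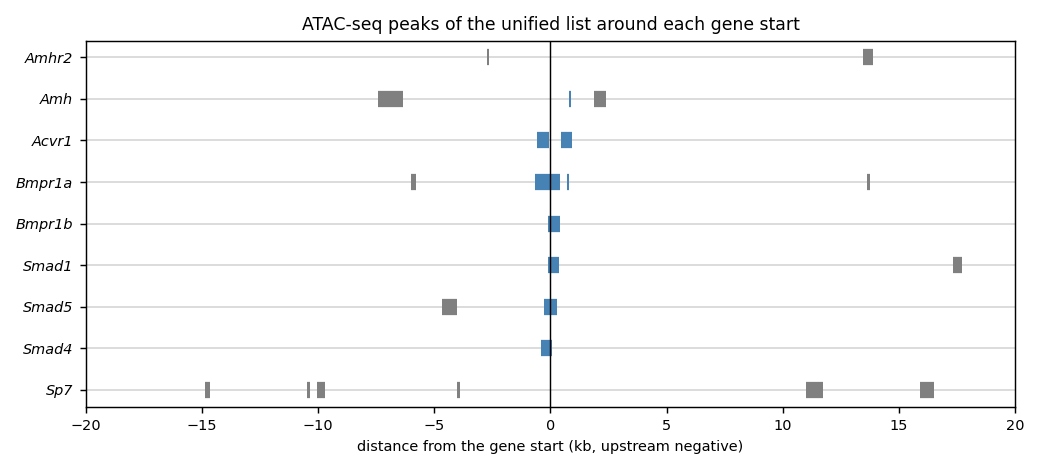
Positions of ATAC-seq peaks from the united list (bars, drawn to scale) against distance from the start of each of the 9 genes in kb, upstream negative; blue bars have their centre within 1 kb of the start and grey bars lie farther away. Amhr2 and Sp7 are the members with no bar near 0.

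Amh itself was detected at a low level in every library. Amh, the ligand, lies at chr10:80805243-80807648 on the plus strand. At E14.5 it was at 3.07, 2.87 and 3.40 CPM in XX and at 1.89, 2.18 and 2.58 CPM in XY libraries. At E16.5 the values were 1.00, 1.99 and 1.49 CPM in XX and 0.557, 2.24 and 1.60 CPM in XY libraries. The sexes did not overlap at E14.5 and overlapped at E16.5. These levels rest on 23 to 143 reads per fetal library, and XY E16.5 replicate 1 was the lowest.

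The sex difference in Amh did not pass the test at E14.5 (log2 XX over XY 0.47 ± 0.35 SE, edgeR adjusted p = 0.518) or at E16.5 (0.03 ± 0.36, adjusted p = 0.965). From E14.5 to E16.5 Amh fell in XX cells by 1.06 on the log2 scale (SE 0.36, edgeR adjusted p = 0.0305). That call was lost without XX E14.5 replicate 1 (adjusted p = 0.0725), replicate 2 (0.0570) or replicate 3 (0.0863) and without XX E16.5 replicate 1 (0.114) or replicate 3 (0.0712). It was also lost with no filter on low counts (0.0728) and without both E14.5 replicates 3 (0.104). In XY cells the age difference was -0.62 ± 0.35 (adjusted p = 0.235). The gene before Amh, Sf3a2, codes for a splicing factor, lies 318 bases away on the same strand, and had group means of 47.1 to 55.2 CPM; it passed none of the 6 tests.

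Amhr2, the receptor specific to the hormone, was higher in XX than in XY mesenchyme at both ages and fell with age in both sexes. At E14.5 it was at 28.6, 32.1 and 31.2 CPM in XX and at 9.51, 9.08 and 6.82 CPM in XY libraries. At E16.5 it was at 11.2, 17.8 and 11.04 CPM in XX and at 2.40, 1.47 and 1.60 CPM in XY libraries. Every XX library lay above every XY library of its age. The groups were ordered XX E14.5, XX E16.5, XY E14.5, XY E16.5 from high to low, and no neighbours in that order overlapped. The lowest group, XY E16.5, still had 55 to 99 reads per library.

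At E14.5 Amhr2 was 3.65-fold higher in XX cells (log2 1.87 ± 0.20, edgeR adjusted p = 6.82e-05), and at E16.5 it was 7.34-fold higher (2.88 ± 0.22, adjusted p = 4.64e-07). On the signed scale, each value lay above that of 99.8% of the 17858 genes tested. Over these ages Amhr2 fell by 1.20 (log2) in XX cells (edgeR adjusted p = 0.000255) and by 2.21 in XY cells (adjusted p = 8.47e-06). These 4 calls held under all alternatives run; without both E14.5 replicates 3, the difference at E14.5 was 1.71 (adjusted p = 0.00314). The change of the sex difference with age, 1.01 ± 0.29, passed the test narrowly (edgeR adjusted p = 0.0448). It was lost without XX E14.5 replicate 1 (adjusted p = 0.101), replicate 2 (0.0736) or replicate 3 (0.0792), without XY E14.5 replicate 1 (0.0818) or replicate 2 (0.112), without XX E16.5 replicate 2 (0.0730), and without XY E16.5 replicate 2 (0.120) or replicate 3 (0.146). With same-numbered libraries as pairs at each age it was 0.95 (adjusted p = 0.0713), with no filter on low counts the adjusted p was 0.124, 0.0544 when counts were scaled by library size alone, and 0.0579 without both E14.5 replicates 3.

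Mesothelium, the surface lining of the tract, also expresses Amhr2 in some settings, so its markers are given beside the receptor. The 5 markers (Upk3b, Msln, Lrrn4, Muc16 and Upk1b) summed to 53.0, 64.9 and 53.4 CPM in XX and 93.0, 75.3 and 86.9 CPM in XY libraries at E14.5. At E16.5 they summed to 35.2, 57.5 and 22.8 CPM in XX and 80.9, 73.7 and 61.0 CPM in XY libraries. The sums were thus lower in XX, where Amhr2 was higher. Within every fetal group, however, the library with the highest sum also had the highest Amhr2. It was XX replicate 2 and XY replicate 1 at each age. The full order of the sums was that of Amhr2 within each XX group but not within the XY groups. At E16.5, 3 of the 5 markers were lower in XX cells by the edgeR test.

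Markers of other cell types moved with sex too. The 6 smooth muscle markers (Myh11, Acta2, Tagln, Cnn1, Actg2 and Des) summed to 302 to 326 CPM in XX and 607 to 888 CPM in XY libraries at E14.5, with 3 of 6 lower in XX, and to 465 to 567 against 1716 to 2893 CPM at E16.5, with 5 of 6 lower in XX. The 9 epithelial markers summed to 30.4 to 34.7 CPM in XX and 45.1 to 53.4 CPM in XY libraries at E14.5, with 1 of 9 lower in XX by the edgeR test. At E16.5 they summed to 22.5 to 32.1 against 32.6 to 40.4 CPM, with 2 of 9 lower in XX. The other epithelial markers did not pass by sex. Neither list overlapped between the sexes at either age. Granulosa markers did not overlap either, at 21.5 to 22.8 CPM in XX and 22.9 to 35.7 CPM in XY libraries at E14.5. At E16.5 they summed to 32.9 to 38.2 against 54.2 to 57.3 CPM. Of the 3 tested, 1 was lower in XX at E14.5 and 2 at E16.5. Of 2 germ markers tested, 1 was lower in XX at E14.5 and 2 at E16.5. Among 5 endothelial markers 1 was higher in XX at E14.5, and 1 was higher and 2 lower at E16.5. In the direction of Amhr2, 3 of 5 immune markers were higher in XX cells at E16.5, namely the macrophage genes Csf1r (log2 1.92), Adgre1 (2.25) and Lyz2 (1.93), while the sums of that list overlapped (28.6 to 71.4 against 12.2 to 46.3 CPM). Of the 8 mesenchyme markers 2 were higher and 3 lower in XX cells at E16.5. Gli1, by which the cells were labelled, was among the lower ones, at means of 50.7 CPM in XX and 208 CPM in XY cells (log2 -2.04, edgeR adjusted p = 3.53e-11), with Pdgfra (-0.86) and Tcf21 (-1.18). At E14.5 Gli1 was at 184 and 228 CPM (-0.31, adjusted p = 0.0125) and was the 1 mesenchyme marker called. The part of these cell types in the sex differences of the members was not tested.

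**Figure D2:**
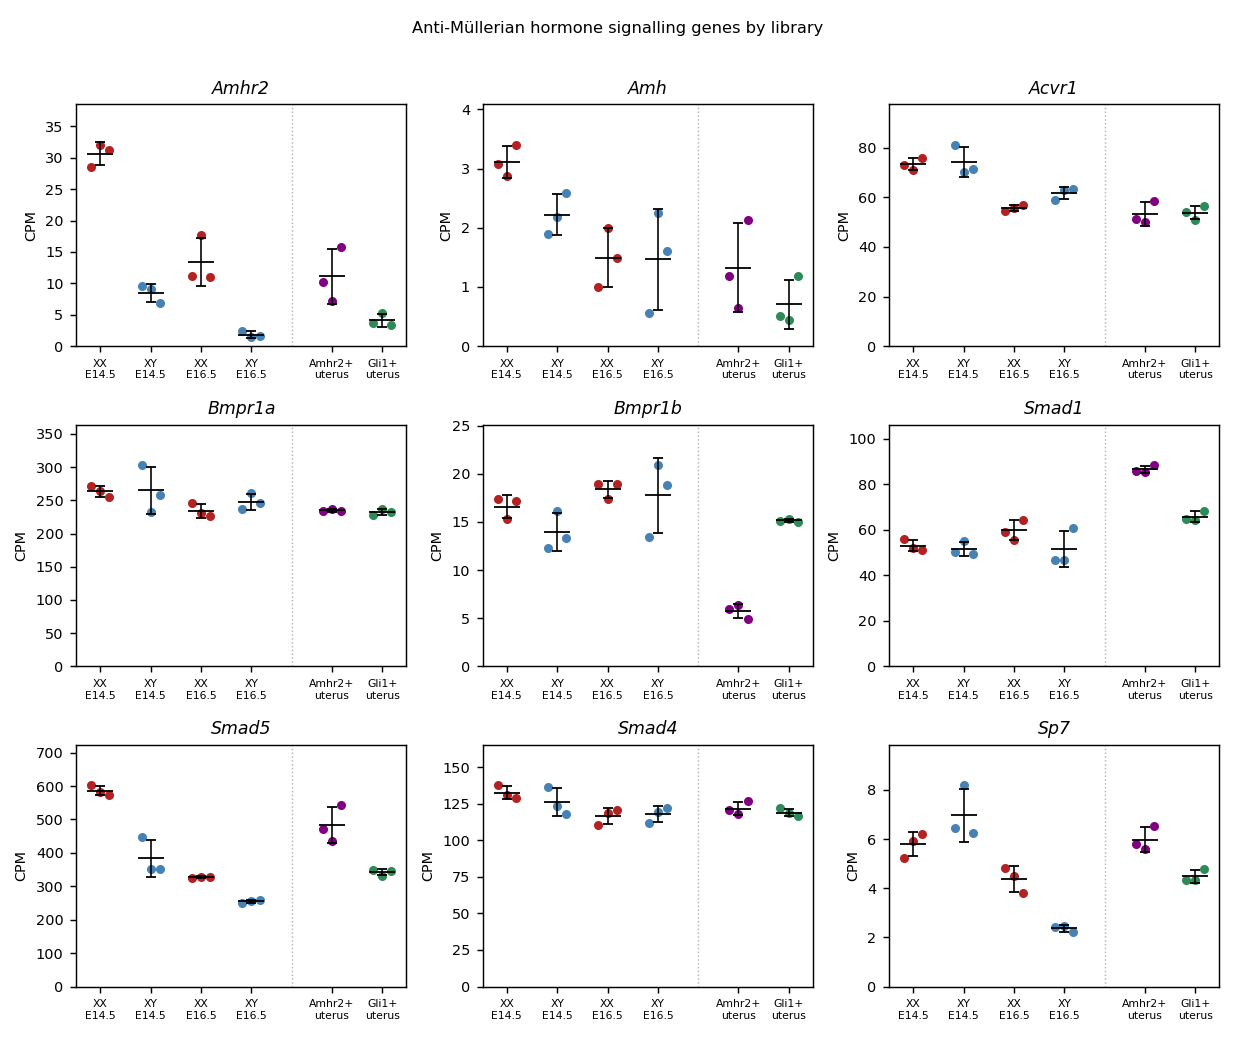
CPM (linear axis from 0) of the 9 genes in each library, 4 fetal groups left and 2 uterine groups right of the dotted line, whose tables were normalised separately; dots are libraries, and black lines are the mean ± SD of 3. The ranges of all 4 fetal groups are separate for Amhr2, Smad5 and Sp7, and those of the uterine groups for Amhr2, Bmpr1b, Smad1, Smad5 and Sp7.

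The type I receptors, which carry the kinase that phosphorylates the Smads, differed little by sex. Acvr1 (chr2:58446434-58567157, minus strand) was at 73.1, 71.0 and 75.9 CPM in XX and 81.3, 70.3 and 71.3 CPM in XY libraries at E14.5. At E16.5 it was at 54.6, 55.7 and 57.1 CPM in XX and 59.1, 63.1 and 63.4 CPM in XY libraries. Each sex was lower at E16.5 than at E14.5 in every library. Acvr1 fell by 0.39 in XX (log2, SE 0.067, edgeR adjusted p = 0.000281) and by 0.26 in XY cells (SE 0.066, adjusted p = 0.00909). The XY call was lost in a fit of the 6 XY libraries alone (adjusted p = 0.0606).

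Bmpr1a (chr14:34410734-34502687, minus strand), the most abundant of them, had means of 263 ± 8.44 and 265 ± 35.6 CPM (SD, n = 3) in XX and XY cells at E14.5. At E16.5 the means were 234 ± 9.96 and 248 ± 12.2 CPM. None of its comparisons passed the test; the age difference in XX cells of -0.17 ± 0.081 (edgeR adjusted p = 0.108) did so in a fit of the 6 XX libraries alone (adjusted p = 0.0127) and when counts were scaled by library size alone (-0.21, adjusted p = 0.0385). The sex difference at E14.5 was -0.01 ± 0.081 on the log2 scale. Bmpr1b (chr3:141837136-142169425, minus strand) was at 17.4, 15.2 and 17.1 CPM in XX and 12.3, 16.1 and 13.3 CPM in XY libraries at E14.5. At E16.5 it was at 18.9, 17.4 and 18.9 CPM in XX and 13.5, 20.9 and 18.8 CPM in XY libraries. The sexes overlapped at both ages, and no fetal comparison of Bmpr1b passed. Its age difference in XY cells, 0.35 ± 0.14 (edgeR adjusted p = 0.0834), passed with the replicate number as a block (adjusted p = 0.0277), with no filter on low counts (0.0480), and without XY E14.5 replicate 2 (0.0396) or XY E16.5 replicate 1 (0.00325).

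Scaled by exon length, the 3 type I receptors kept similar proportions in all fetal groups. Bmpr1a made up 69.8% to 71.6% of their summed CPM per kb (group means), Acvr1 22.5% to 25.9%, and Bmpr1b 3.99% to 5.99%. Amhr2 did not keep such a proportion. In XX cells at E14.5 Amhr2 was at 15.3 ± 0.920 and Acvr1 at 15.2 ± 0.509 CPM per kb (SD, n = 3). In XY cells at E16.5 Amhr2 was at 0.909 ± 0.251 and Acvr1 at 12.8 ± 0.501 CPM per kb.

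**Figure D3:**
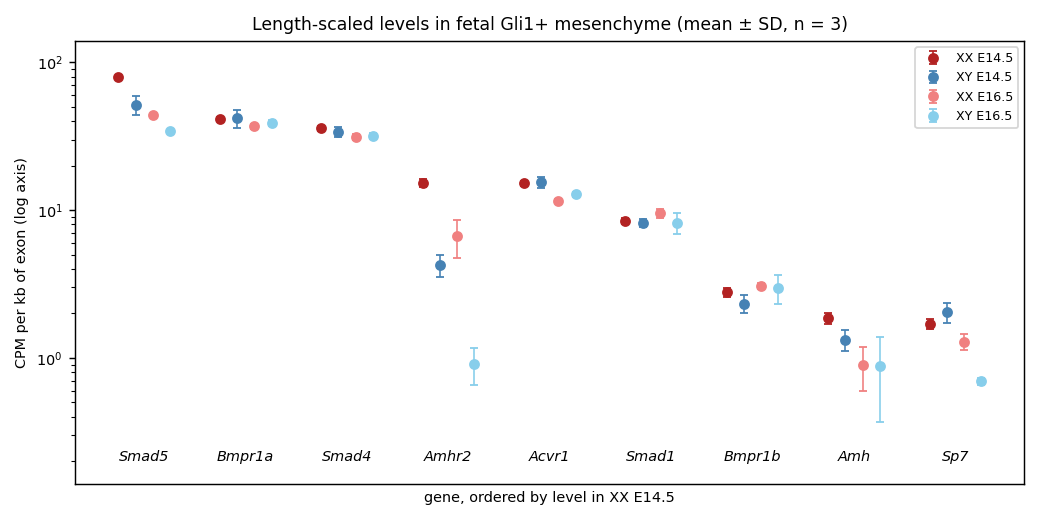
Mean CPM per kb of exon (log axis, ± SD, n = 3) of the 9 genes in the 4 fetal groups, ordered by the level in XX cells at E14.5. Amhr2 spans the widest range, from 15.3 in XX cells at E14.5 to 0.909 in XY cells at E16.5.

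Smad5, which carries the signal of bone morphogenetic protein type receptors, was higher in XX cells and lower at E16.5, as Amhr2 was. It had the highest level per length of the members in 3 fetal groups, while in XY cells at E16.5 Bmpr1a was higher (39.0 ± 1.93 against 34.4 ± 0.628 CPM per kb, SD, n = 3). Smad5 (chr13:56703010-56742377, plus strand) was at 603, 583 and 574 CPM in XX and 448, 352 and 351 CPM in XY libraries at E14.5. At E16.5 it was at 324, 329 and 328 CPM in XX and 250, 257 and 259 CPM in XY libraries. All XX libraries lay above all XY libraries of the same age, and the 4 groups did not overlap in the order XX E14.5, XY E14.5, XX E16.5, XY E16.5. Smad5 was higher in XX cells by 0.61 ± 0.080 at E14.5 (edgeR adjusted p = 0.000205) and by 0.36 ± 0.080 at E16.5 (adjusted p = 0.00334). The change of that difference, -0.26 ± 0.11, did not pass (edgeR adjusted p = 0.180) but did without XY E14.5 replicate 1 (-0.38, adjusted p = 0.00298). With age Smad5 fell by 0.84 in XX (edgeR adjusted p = 8.92e-07) and by 0.59 in XY cells (adjusted p = 5.40e-05). All 4 calls held under the alternatives run, and the difference at E14.5 was 0.57 without both E14.5 replicates 3 (adjusted p = 0.0108).

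Smad1 (chr8:79338395-79399518, minus strand), which has the same role, was at 55.7, 51.9 and 51.3 CPM in XX and 50.1, 54.8 and 49.3 CPM in XY libraries at E14.5. At E16.5 it was at 59.0, 55.7 and 64.4 CPM in XX and 46.8, 46.9 and 60.9 CPM in XY libraries. The sexes overlapped at both ages. Smad1 did not pass by age, though its difference in XX cells, 0.17 ± 0.096 (edgeR adjusted p = 0.166), did so in a fit of the 6 XX libraries alone (adjusted p = 0.0370). The sex difference at E16.5 was 0.21 ± 0.095 (edgeR adjusted p = 0.116); with same-numbered libraries as pairs it was 0.22 (adjusted p = 0.0231), and without XY E16.5 replicate 3 it was 0.34 (adjusted p = 0.00560). Of the summed CPM per kb of Smad1, Smad5 and Smad9, Smad5 took 88.0% ± 0.131 in XX and 82.7% ± 1.91 in XY cells at E14.5, and 79.7% ± 1.14 and 77.8% ± 1.88 at E16.5 (SD, n = 3).

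Smad4 (chr18:73639009-73703780, minus strand), the partner shared with the transforming growth factor beta branch, stayed within 111 to 138 CPM in the fetal libraries. It fell in XX cells by 0.19 on the log2 scale (SE 0.066, edgeR adjusted p = 0.0357). This call was lost without any 1 of XX E14.5 replicates 1 (adjusted p = 0.134), 2 (0.0751) and 3 (0.0555), without XX E16.5 replicate 1 (0.160) or 2 (0.0678), without both E14.5 replicates 3 (0.0586), with no filter on low counts (0.104) and with the replicate number as a block (0.0978). Its sex differences were 0.07 ± 0.066 at E14.5 and -0.01 ± 0.066 at E16.5.

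Sp7 did not pass the test by sex at E14.5 and was higher in XX than in XY cells at E16.5. It was at 5.24, 5.93 and 6.19 CPM in XX and 6.44, 8.19 and 6.26 CPM in XY libraries at E14.5. At E16.5 it was at 4.82, 4.51 and 3.79 CPM in XX and 2.42, 2.46 and 2.21 CPM in XY libraries. The XX libraries were all below the XY ones at E14.5 and all above them at E16.5. Between 92 and 349 reads per library stand behind these values.

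The sex difference in Sp7 was -0.27 ± 0.14 at E14.5 (edgeR adjusted p = 0.336) and 0.89 ± 0.15 at E16.5 (adjusted p = 0.000325). The difference between the ages, 1.16 ± 0.21, passed in the direct test (adjusted p = 0.00155) and under all 17 alternatives. In XY cells Sp7 fell 2.96-fold with age (log2 -1.56 ± 0.15, edgeR adjusted p = 1.18e-06). In XX cells the fall of 0.40 (adjusted p = 0.0380) was lost without XX E14.5 replicate 2 (adjusted p = 0.09995) or 3 (0.125) and without XX E16.5 replicate 2 (0.0681) or 3 (0.140). It was also lost with no filter on low counts (0.0782), with the replicate number as a block (0.0593) and without both E14.5 replicates 3 (0.134). In the latter fit the difference between the ages was 1.29 (adjusted p = 0.00599).

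Counted together at E14.5, 2 of the 9 members were higher in XX cells (Amhr2 and Smad5) and none was lower; among all genes tested 2.59% were higher and 3.69% lower, 6.28% in all. At E16.5, 3 were higher (Amhr2, Smad5 and Sp7) and none lower, against 13.2% higher and 14.1% lower of all genes, 27.3% in all. The sex difference changed with age for 2 members (Amhr2 and Sp7), both upward, and for 10.0% of all genes (4.66% upward and 5.36% downward). With age, 6 members fell in XX cells (Amhr2, Amh, Acvr1, Smad5, Smad4 and Sp7) and none rose, against 18.6% of all genes lower and 21.0% higher, 39.6% in all. In XY cells 4 fell (Amhr2, Acvr1, Smad5 and Sp7) and none rose, against 10.2% lower and 13.1% higher, 23.3% in all. The groups did not overlap in CPM for 4 members by sex at E14.5 (27.2% of all genes), 4 at E16.5 (38.3%), 7 by age in XX (56.6%) and 4 by age in XY cells (34.9%). The median log2 difference of the members was 0.07 and 0.05 for sex at E14.5 and E16.5 and -0.39 and -0.26 for age in XX and XY cells, while the medians of all genes tested were -0.01, 0.01, 0.00 and -0.01. The sex and age comparisons share groups of libraries.

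**Figure D4:**
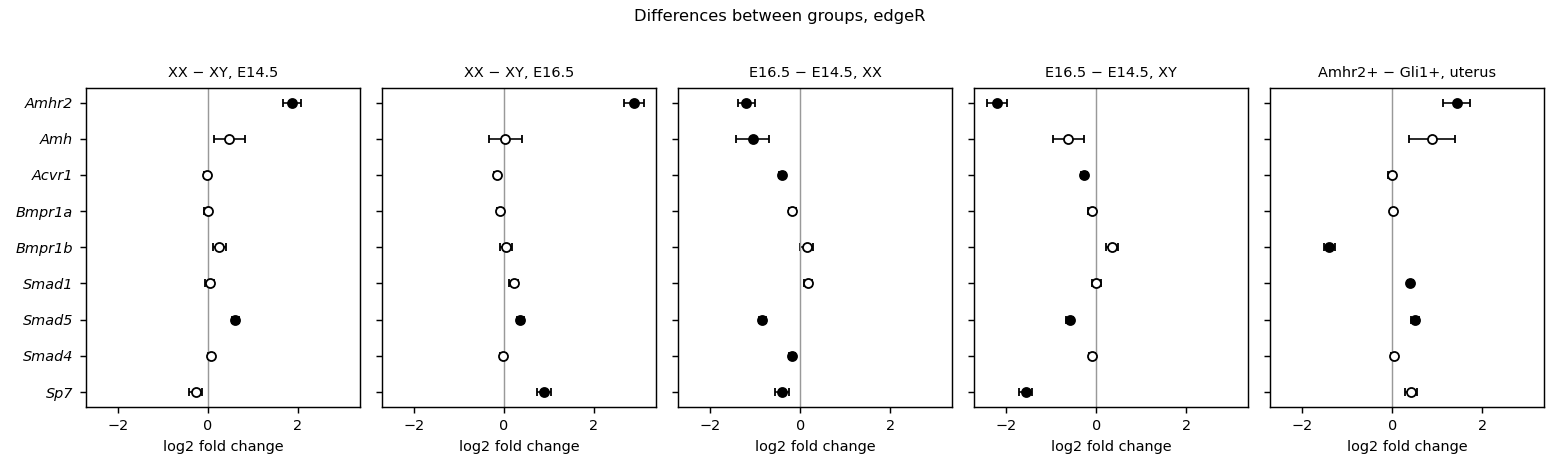
Log2 fold change (± SE) of the 9 genes in the 2 sex comparisons (XX minus XY), the 2 age comparisons (E16.5 minus E14.5) and the uterine comparison (Amhr2+ minus Gli1+); filled dots have an edgeR adjusted p under 0.05. Amhr2 lies farthest from 0 in both sex comparisons.

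Cells sorted by the Amhr2-Cre reporter had more Amhr2 RNA than those sorted by Gli1-CreER in the uterus, and differed in Bmpr1b, Smad1 and Smad5. Amhr2 was at 10.3, 7.25 and 15.8 CPM in the Amhr2+ and 3.72, 5.23 and 3.35 CPM in the Gli1+ libraries. The populations did not overlap, and Amhr2 was thus also detected in Gli1+ cells, with 111 to 169 reads per library. The difference was 2.70-fold (log2 1.43 ± 0.30, edgeR adjusted p = 0.0124). It was lost without Gli1+ replicate 1 (adjusted p = 0.0517) and with the replicate number as a block (adjusted p = 0.0518).

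Bmpr1b was the one member lower in Amhr2+ cells. It was at 5.96, 6.36 and 4.88 CPM in Amhr2+ and 15.1, 15.3 and 15.0 CPM in Gli1+ libraries. The populations were far apart compared with their spread, and the level was 2.63-fold lower in Amhr2+ cells (log2 -1.40 ± 0.12, edgeR adjusted p = 0.000173), a call kept under all 10 alternatives. Its share of the summed type I receptor CPM per kb was 1.97% ± 0.284 in Amhr2+ and 5.05% ± 0.0740 in Gli1+ cells (SD, n = 3).

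Smad1 was at 85.6, 85.4 and 88.5 CPM in Amhr2+ and 64.8, 64.2 and 68.4 CPM in Gli1+ libraries (log2 0.39 ± 0.057, edgeR adjusted p = 0.00200). Smad5 was at 472, 437 and 544 CPM in Amhr2+ and 348, 332 and 346 CPM in Gli1+ libraries (0.50 ± 0.084, adjusted p = 0.00392). Both were higher in Amhr2+ cells without overlap, and both calls held under all alternatives. Sp7 was at 5.78, 5.61 and 6.54 CPM in Amhr2+ and 4.32, 4.33 and 4.79 CPM in Gli1+ libraries. Though these did not overlap, the difference of 0.41 ± 0.14 did not pass (edgeR adjusted p = 0.0602), but it did when counts were scaled by library size alone (0.50, adjusted p = 0.0287).

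Amh was at 1.19, 0.647 and 2.14 CPM in Amhr2+ and 0.506, 0.433 and 1.18 CPM in Gli1+ libraries, and the populations overlapped (0.88 ± 0.52, edgeR adjusted p = 0.250; with the replicate number as a block 0.90, adjusted p = 0.0383). Acvr1, Bmpr1a and Smad4 differed by -0.01 ± 0.080, 0.02 ± 0.053 and 0.03 ± 0.056 on the log2 scale and did not pass. In all, 3 of 9 members were higher and 1 lower, while 10.1% of the 16195 genes tested were higher and 13.7% lower, 23.9% in all. The higher members include Amhr2, whose Cre marked the sorted cells, so its call is not independent of the sorting. The populations did not overlap for 5 members and for 44.4% of all genes; the median was 0.39 for the members and 0.00 for all genes.

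Markers of cell types moved with the uterine comparison. The 8 mesenchyme markers summed to 21406 to 23382 CPM in Amhr2+ and 38533 to 42442 CPM in Gli1+ libraries, with 5 of 8 lower in Amhr2+ cells and a median log2 difference of -0.55 (0.00 for all genes). The 9 epithelial markers summed to 71.3 to 72.7 CPM in Amhr2+ and 30.9 to 42.9 CPM in Gli1+ libraries, and 4 of the 6 tested were higher in Amhr2+ cells; Pax2, Pax8, Lhx1 and Wnt9b had means under 1 CPM in both populations. Smooth muscle markers summed to 1122 to 1769 CPM in Amhr2+ and 2121 to 2340 CPM in Gli1+ libraries, with 2 of 6 lower in Amhr2+ cells. Without overlap between the populations, the 4 granulosa markers summed to 71.7 to 122 against 63.4 to 66.3 CPM and the 5 endothelial markers to 23.8 to 29.6 against 36.7 to 44.9 CPM. The 8 Sertoli markers summed to 135 to 192 against 220 to 259 CPM. Mesothelial markers summed to 67.7, 58.8 and 82.4 CPM in Amhr2+ and 53.2, 82.8 and 41.9 CPM in Gli1+ libraries and thus overlapped. Within each population the order of the mesothelial sums was that of Amhr2. Their part in these results was not tested.

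The wider pathway was described with 44 further genes in 5 lists, of which 43 were tested in the fetal and 40 in the uterine table; a gene is said to differ where its edgeR adjusted p was under 0.05. At E14.5, 3 of the 43 were higher and 6 lower in XX cells (2.59% and 3.69% of all genes), and 3 of these 9 calls (Wif1, Msx2 and Chrd) held under all 12 alternatives. At E16.5, 9 were higher and 8 lower (13.2% and 14.1% of all genes), and 11 of the 17 calls held. With age 10 rose and 22 fell in XX cells, against 21.0% and 18.6% of all genes, and 20 of the 32 calls held. In XY cells 6 rose and 14 fell, against 13.1% and 10.2%, and 18 of the 20 calls held. In the uterus 7 of 40 were higher and 11 lower in Amhr2+ cells, against 10.1% and 13.7%, and 14 of the 18 calls held under all 10 alternatives.

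Among the 11 genes tied to duct regression and Wnt signalling, 3 were higher and 3 lower in XX cells at E14.5 (2.59% and 3.69% of all genes). At E16.5, 4 were higher and 2 lower (13.2% and 14.1%). Wif1 and Msx2 were high in a single fetal group, XY at E14.5. Wif1, a secreted Wnt inhibitor reported to rise with hormone signalling in the male duct mesenchyme, had a mean of 2.07 ± 0.352 CPM (SD, n = 3) in XY cells at E14.5. It was at 0.369 ± 0.113 CPM in XX cells at that age, and at 0.215 ± 0.0982 and 0.300 ± 0.181 CPM in XX and XY cells at E16.5. The 3 XY E14.5 libraries held 56 to 93 reads and the other fetal libraries 5 to 21. Wif1 was lower in XX cells at E14.5 by a log2 difference of -2.45 (edgeR adjusted p = 7.90e-04) and fell in XY cells with age by 2.80 (adjusted p = 2.67e-05).

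Msx2, a homeobox factor of the bone morphogenetic protein pathway, was at 4.99 ± 1.18 CPM in XY cells at E14.5 and at 0.400 ± 0.250, 0.404 ± 0.0453 and 0.432 ± 0.209 CPM in XX E14.5, XX E16.5 and XY E16.5 cells. It was lower in XX cells at E14.5 by a log2 difference of -3.64 (edgeR adjusted p = 1.55e-05), and at E16.5 the difference of -0.11 did not pass. Its relative Msx1 was at 1.12 ± 0.0981 and 2.12 ± 0.616 CPM in XX and XY cells at E14.5 and at 6.16 ± 0.793 and 10.96 ± 1.34 CPM at E16.5. Msx1 rose with age in both sexes (log2 2.45 and 2.34). It was lower in XX cells at E14.5 (-0.94) and at E16.5 (-0.83), and the E14.5 call was lost under 6 of 12 alternatives.

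Wnt7a, a Müllerian duct epithelial ligand needed for Amhr2 expression in the duct mesenchyme, was at 0.731 ± 0.395 CPM in XX cells at E16.5, with 20 to 47 reads per library, and had no read in the 3 XY libraries. Against a floor of 3 reads per library, 0.0801 CPM in the shallowest of these 3, it was at least 9.13-fold higher in XX. At E14.5 it was at 0.545 ± 0.201 CPM in XX and 0.228 ± 0.229 CPM in XY cells, which did not pass the test. Wnt4, a ligand needed to form the duct, was higher in XX cells at E16.5 (107 ± 5.68 against 57.9 ± 8.86 CPM, log2 0.89, edgeR adjusted p = 1.73e-05), and so was Lef1, a nuclear partner of beta-catenin (10.1 ± 0.459 against 7.13 ± 1.09 CPM, log2 0.49). Wnt4 and Lef1 were also higher in XX cells at E14.5 (log2 0.47 and 0.44), calls lost under 5 and 6 of 12 alternatives. The Wnt inhibitor Sfrp1 was lower in XX cells at E16.5 (478 ± 73.0 against 657 ± 79.1 CPM, log2 -0.46). Ctnnb1, beta-catenin itself, did not pass by sex at either age. Mmp2, also in this list, was higher in XX cells at E14.5 (log2 0.32, edgeR adjusted p = 0.00358). That call was lost without both E14.5 replicates 3 (adjusted p = 0.105). Mmp14 was higher in XX cells at E16.5 (0.25, adjusted p = 0.0272), a call lost under 4 of 12 alternatives.

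**Figure D5:**
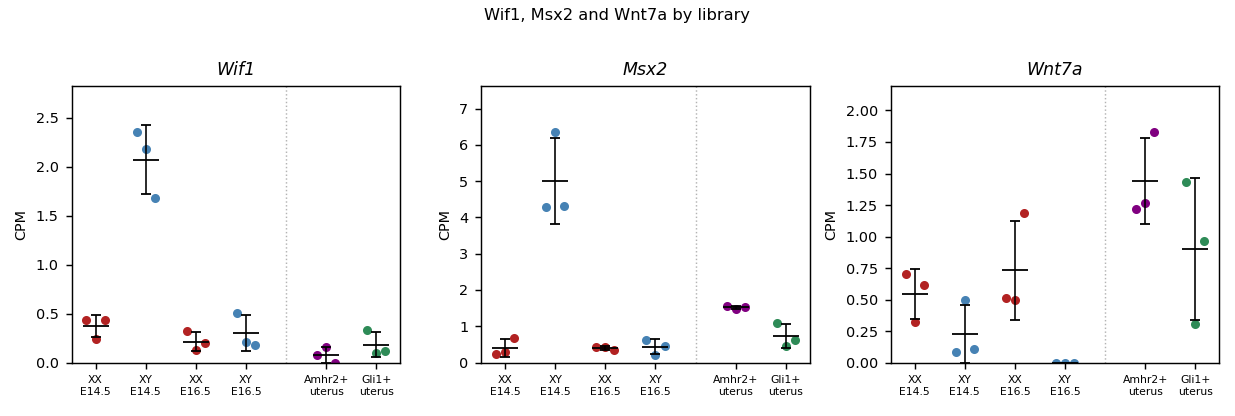
CPM (linear axis from 0) of Wif1, Msx2 and Wnt7a in each library, with fetal groups left and uterine groups right of the dotted line; dots are libraries and black lines the mean ± SD of 3. Wif1 and Msx2 stand out in XY cells at E14.5, and Wnt7a is at 0 in all 3 XY libraries at E16.5.

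Of the 8 transcription factors tied to Amh or Amhr2 expression, 2 were higher and 2 lower in XX cells at E16.5, against 13.2% and 14.1% of all genes. Wt1, which is needed for Amhr2 expression, had means of 234 ± 14.2 and 200.4 ± 9.49 CPM in XX and XY cells at E14.5, and 172 ± 9.49 and 102 ± 9.02 CPM at E16.5. It did not pass by sex at E14.5 (log2 0.22), was higher in XX at E16.5 (0.75, edgeR adjusted p = 1.54e-06), fell with age in XX (-0.45) and XY cells (-0.97), and was higher in Amhr2+ than in Gli1+ uterine cells (0.87, 256 ± 21.2 against 141 ± 2.08 CPM). Emx2, a homeobox factor of the urogenital tract, was higher in XX cells at E16.5 (43.1 ± 7.14 against 23.5 ± 3.72 CPM, log2 0.88), but its reads cannot be told apart from those of the overlapping Emx2os. Nr5a1 and Gata4, factors of gonadal somatic cells, stayed under 2 CPM in all group means and were lower in XX cells at E16.5 (log2 -2.37 and -2.49). Gata4 was also lower in XX cells at E14.5 (-1.69, edgeR adjusted p = 0.00852), a call lost without XX E14.5 replicate 1 (adjusted p = 0.0617).

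The 4 Id genes, immediate targets of Smad1 and Smad5, showed no call by sex at either age. Id1 varied widely between replicates, with means of 107 ± 26.8 and 142 ± 47.1 CPM in XX and XY cells at E14.5 and 79.7 ± 25.0 and 61.0 ± 43.3 CPM at E16.5. Id4 rose with age in XX cells (log2 1.19, edgeR adjusted p = 0.00221) and was lower in Amhr2+ than in Gli1+ uterine cells (-0.79). The median of the 4 was 0.01 and 0.30 for sex at E14.5 and E16.5, against -0.01 and 0.01 for all genes.

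Among 12 other Smads and regulators, the secreted bone morphogenetic protein antagonist Chrd was lower in XX cells at both ages (log2 -0.48 and -0.52) and lower in Amhr2+ uterine cells (-0.79). Bambi, a decoy receptor, and Nog, another antagonist, were lower in Amhr2+ than in Gli1+ cells too, by log2 differences of -1.17 (26.8 ± 1.77 against 60.2 ± 5.03 CPM) and -1.50 (2.40 ± 0.373 against 6.78 ± 1.30 CPM). In this list 1 gene was higher and 4 lower in Amhr2+ cells (10.1% and 13.7% of all genes), with a median of -0.10 against 0.00 for all genes. The inhibitory Smad6 was lower in XX cells at E14.5 (-0.52, edgeR adjusted p = 0.0190); this call was lost in a fit of the 6 E14.5 libraries alone (adjusted p = 0.0598), without XX E14.5 replicate 1 (0.0844), 2 (0.0751) or 3 (0.0567), and without both E14.5 replicates 3 (0.0696). Smad7, the other inhibitory member, did not pass by sex. Of 9 other receptors of the family 8 were tested; none differed by sex at E14.5. At E16.5 Bmpr2, a type II receptor of the bone morphogenetic proteins, was lower in XX cells (-0.33, edgeR adjusted p = 0.0289) and Tgfbr2, the type II receptor of transforming growth factor beta, was higher (0.18, adjusted p = 0.0481). These calls were lost under 7 and 9 of 12 alternatives, with adjusted p up to 0.144 and 0.196. Acvrl1, a type I receptor known from endothelium, rose with age in XX (0.90) and XY cells (1.12) and was lower in Amhr2+ uterine cells (-0.96).

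Finally, the fetal genes with a profile closest to those of Amhr2 and Sp7 were sought among 11723 genes, by Pearson's r of log2 CPM over the 12 fetal libraries. Closest to Amhr2 were Mybbp1a (r = 0.987), Slco3a1 (0.984), Il1rl2 (0.983), Ptpru (0.983) and Prdx6 (0.982). Closest to Sp7 were Cux2 (0.975), Gap43 (0.972), Igf2 (0.962), Bmp7 (0.961) and Limch1 (0.960). Among the members, Smad5 had r = 0.873 and Sp7 r = 0.758 with Amhr2. All these values share the same libraries and depth and largely reflect 4 group means, so they are a description only.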

How the data were processed

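RNA-seq of 12 fetal and 6 uterine libraries was analysed. The authors deposited raw read counts per gene, 1 table for each kit: per the labels' protocols, a non-stranded TruSeq kit for fetal and a stranded one for uterine cells, so the tables were never fitted together. Per the submitters' processing notes, the tools include STAR 2.5, featureCounts, Subread 1.5.0-p1, Bowtie 1.2, SAMtools 1.3.1, Picard, bedtools 2.24.0 and MACS2 2.1.1, and the build is mm10; their settings, the annotation and the use of strand are not given in the sources used here, so overlapping genes are uncertain. Smad5 overlaps 3 small genes, and Acvr1 and Bmpr1a overlap 1 each.

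edgeR 4.0.16 under R 4.3.3 gave the quasi-likelihood tests (filterByExpr, TMM, robust), in 1 model of 4 group means over the 12 fetal libraries and in 1 over the 6 uterine libraries, on 17858 and 16195 genes. Benjamini-Hochberg adjustment ran over all genes of a table, with a threshold of 0.05. The standard error is the log2 fold change divided by the root of F. CPM use TMM-scaled library sizes; the floor of 3 counts equals 0.0485 to 0.126 CPM (fetal) and 0.0778 to 0.102 CPM (uterine). CPM per kb use the exon union of GENCODE vM21. Likeness used log2 CPM with a prior count of 2, among genes with at least 5 CPM in their highest group. The fit was tested on simulated data. The deposited peak list was used for positions only.

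The members, the pathway lists (family receptors, other Smads and regulators, Id genes, regression genes, regulators of Amh and Amhr2) and the marker lists were chosen with earlier results of these data known. Named genes are the members, those lists, the neighbours of Amhr2, Amh and Sp7, and the 5 genes most like Amhr2 and Sp7. Alternatives were DESeq2 1.42.0, library size as the only scaling, no filter, a replicate block, the 6 libraries compared alone, each library left out and, added after seeing the data, both E14.5 replicates 3 left out together. The deviations of same-numbered libraries from their group means correlated at 0.115 to 0.396 between the sexes at E16.5, above the limit of 0.1. The main tests had no replicate block, and same-numbered libraries were treated as pairs only in the replicate-block alternative. No label says what a number stands for.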

Additional observations from a re-analysis of the deposited data

Results flagged for a closer look

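For 9 genes the sex difference (log2 XX over XY) at E16.5 differed from that at E14.5 in a direct edgeR test of the change over the 12 fetal libraries. They comprise 2 of the 9 members, both upward, and 5 upward and 2 downward of the 43 pathway genes tested. Among all 17858 genes tested the share was 10.0%, with 4.66% upward and 5.36% downward. Among the members the change was 1.01 for Amhr2 and 1.16 for Sp7. Among the other pathway genes it was 2.02 for Wif1, 3.52 for Msx2, 6.63 for Wnt7a, -0.78 for Sfrp1, 0.52 for Wt1, -2.55 for Nr5a1 and 0.82 for Emx2. The Wnt7a value depends on the prior count, because its 3 XY libraries at E16.5 hold no read, and is no bound. The call for Amhr2 was lost under 12 of 17 alternatives, each given with its value in the report. The calls for Sp7, Msx2, Sfrp1 and Wt1 held under all 17 alternatives. The call for Wif1 was lost under 11 of them and for Emx2 under 7, each with a library or a pair of libraries left out. Wif1 was lost without XX E14.5 replicate 1 (adjusted p = 0.0738), 2 (0.114) or 3 (0.0710), XY E14.5 replicate 1 (0.0673), 2 (0.0895) or 3 (0.0551), XX E16.5 replicate 1 (0.197) or 3 (0.0756), XY E16.5 replicate 2 (0.0932) or 3 (0.109), or both E14.5 replicates 3 (0.0876). Emx2 was lost without XX E14.5 replicate 1 (0.0563) or 2 (0.0505), XY E14.5 replicate 2 (0.0540) or 3 (0.0578), XX E16.5 replicate 2 (0.0508), or XY E16.5 replicate 2 (0.0527) or 3 (0.0536). Wnt7a was lost without XY E16.5 replicate 3 (0.0534), and Nr5a1 without both E14.5 replicates 3 (0.0855).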

How the results depend on the processing

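Of the members' log2 differences under the alternatives, 603 kept their direction and their side of the threshold, 37 lost a call, 12 gained one and 23 changed sign, none of them called. Those that changed sign with 1 library left out ran, for sex at E14.5, from -0.0553 to 0.0498 (Acvr1) and from -0.0927 to 0.0990 (Bmpr1a). For sex at E16.5 they ran from -0.341 to 0.419 (Amh), -0.111 to 0.181 (Bmpr1b) and -0.0497 to 0.0125 (Smad4), for its change with age from -0.180 to 0.0116 (Bmpr1a), for age in XY cells from -0.182 to 0.00929 (Bmpr1a) and -0.119 to 0.0696 (Smad1), and in the uterus from -0.0874 to 0.0358 (Acvr1). Sign changes under other settings were Bmpr1a by sex at E14.5 with DESeq2 (0.00126), Smad1 by age in XY cells with library size as the only scaling (-0.0551), with the replicate block (-0.00456) and without both E14.5 replicates 3 (-0.0274), and Acvr1 in the uterus with library size only (0.0696) and with no filter (0.00468).

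The count of genes called by sex at E14.5, 1121, ran from 553 to 1678 with 1 library left out. It was 578, 660 and 653 without XX replicates 1, 2 and 3, 686 and 553 without XY replicates 2 and 3, and 288 without both replicates 3. The count for the change with age, 1790, ran from 1335 to 2687, the latter without XY E16.5 replicate 1, and was 1021 without both E14.5 replicates 3. The uterine count, 3866, ran from 1949 (without Amhr2+ replicate 1; 2521 without Gli1+ replicate 1) to 3521. Fits without a library have fewer samples. With library size as the only scaling, higher and lower calls split 3130 to 3924 for age in XX (3746 to 3322 under TMM), 1847 to 2641 in XY (2340 to 1828) and 2849 to 1640 in the uterus (1642 to 2224).

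With the replicate number as a block, calls numbered 1581 and 5901 for sex at E14.5 and E16.5, 2592 for its change with age, 6255 and 3463 for age in XX and XY, and 4725 in the uterus. At E14.5 the same-number correlations were 0.0504 to 0.0725 and all 6 libraries correlated best with their own number, a hint from the data and not the design. In the uterus they were 0.00176 to 0.243, with 4 of 6. For the age comparisons the block pairs same-numbered libraries across ages. Their correlations were -0.0270 to 0.00307 in XX, with 0 of 6, and -0.0813 to 0.0397 in XY cells, with 1 of 6. These values give no ground for that pairing. Beside the calls on Smad1, Smad4, Sp7, Bmpr1b, Amhr2 and Amh given above, the block changed no member's call. Depth limits Amh, Wif1, Msx2 and Wnt7a.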
